A study of Mus musculus with 2 samples.

Results

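The 4 loci described here carry the genes of the Runx family (Runx1, Runx2 and Runx3) and Cbfb in mouse splenic natural killer (NK) cells. Their members are the Runx3 peaks whose midpoint lay in fixed mm9 windows: chr4:134560000-134760000 (Runx3 and its upstream side), chr16:92560000-92900000 (Runx1), chr17:44700000-45000000 (Runx2) and chr8:107640000-107780000 (Cbfb). The windows were chosen by the positions of the genes with the peak counts of this list already known, so the counts below are a description. Of the 19647 peaks in the list, 56 (0.285%) were members: 28 at Runx3, 20 at Runx1, 5 at Runx2 and 3 at Cbfb. All came from 1 chromatin immunoprecipitation sequencing (ChIP-seq) library in which a home-made polyclonal antibody to Runx3 was used. The study paired it with 1 control library made with non-immune rabbit serum, whose values were not used here. Both libraries came from NK cells of ICR mice, labelled wild type, given 2 injections of IL-15/Ra (the cytokine IL-15 complexed with its receptor alpha chain) at an interval of 2 days, and were purified by depleting other cells and then sorting on NKp46, a surface receptor of NK cells. No untreated NK cells are among the groups, and the labels do not say how many mice gave the cells.

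Runx proteins are transcription factors that bind DNA through the Runt domain, and Cbfb is their shared partner, which does not contact DNA itself but strengthens binding. Runx3 acts in NK cells and cytotoxic T cells, Runx1 in blood stem cells and lymphocytes, and Runx2 in bone formation. Runx genes are transcribed from a distal and a proximal promoter, and Runx proteins are known to act on promoters of their own family, which is why peaks of Runx3 at these loci bear on autoregulation and cross-regulation.

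RefSeq promoter sequences (build GRCm38.p6, 250 bases before to 50 after each start site) matched all 4 genes, with 2 start sites for Runx3, 2 for Runx1, 1 for Runx2 and 1 for Cbfb. The most upstream start sites of Runx3, Runx1 and Runx2 shared an unbroken run of 18 bases that holds the RUNX letters TGTGGT, read on the opposite strand as ACCACA, side by side in a pair. It is shown because it is the longest run that these start sites share. The downstream start sites of Runx3 and Runx1 do not hold it. In these 30-base stretches, read 5′ to 3′ on the gene's strand, capitals mark the shared run:
Runx3: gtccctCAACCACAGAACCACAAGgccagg
Runx1: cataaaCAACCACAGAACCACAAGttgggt
Runx2: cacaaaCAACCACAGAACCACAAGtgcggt

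Counted from the start site, the shared run began at base -136 in Runx3, before the start, and at bases 27 in Runx1 and 22 in Runx2, after it. Of the 32851 promoters of this length in the table, 4 (0.0122%) held the run on either strand: those of Runx1, Runx2 and Runx3 and that of Gm16225, named after its match was seen, a noncoding RNA gene whose promoter window overlaps that of Runx3 on the opposite strand. The looser pair ACCACANNACCACA occurred in 7 promoters (0.0213%). The run was defined as the longest shared by the Runx1, Runx2 and Runx3 start sites, so their matches to both were given in advance. These shares therefore do not test whether the run is particular to the family.

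The 250 bases before both Runx3 start sites are shown, with the RUNX letters TGTGGT and TGCGGT of either strand in capitals. Autoregulation could act on such stretches, but whether it acts on these was not tested. The first lies within the RefSeq window chr4:135120395-135120694 and the second within chr4:135152295-135152594 (GRCm38.p6, plus strand), coordinates that cannot be set against the mm9 positions of the peaks.
Runx3 upstream start site: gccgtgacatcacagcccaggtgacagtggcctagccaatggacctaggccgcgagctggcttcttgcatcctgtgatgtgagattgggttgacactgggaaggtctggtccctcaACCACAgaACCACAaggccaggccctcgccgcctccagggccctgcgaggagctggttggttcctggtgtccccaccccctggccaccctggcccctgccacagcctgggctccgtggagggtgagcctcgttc
Runx3 downstream start site: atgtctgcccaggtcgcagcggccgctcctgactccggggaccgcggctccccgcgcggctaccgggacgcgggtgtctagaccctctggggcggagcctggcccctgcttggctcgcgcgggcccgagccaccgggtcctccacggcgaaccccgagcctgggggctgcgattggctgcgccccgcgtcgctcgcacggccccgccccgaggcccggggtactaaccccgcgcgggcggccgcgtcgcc

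The upstream start site of Runx3 had both its TGTGGT matches in this stretch, whereas the downstream one had 0 in its 300 bases, as did the downstream start site of Runx1 and the promoter of Cbfb. Runx1 held 2 matches at its upstream start site and Runx2 held 3, plus 1 of the variant TGCGGT. Except for the Runx2 match at base -80, all these TGTGGT matches are the pair within the shared run described above. Over all promoters, 16.8% held TGTGGT, 1.81% held it more than once and 6.45% held TGCGGT, so a single match is common. The GC content was 63.7% at the upstream and 77.3% at the downstream start site of Runx3. At Runx1 it was 45% and 69%, against a median of 52.7% over all promoters. ETS letters (GGAA) were found at 5 of the 6 start sites and in 96.0% of all promoters. STAT (TTCNNNGAA), AP-1 (TGANTCA) and T-box (GGTGTGA) letters were found at 0 of the 6 start sites, and in 8.30%, 7.81% and 3.98% of all promoters. All motifs were sought on both strands, and the RUNX letters do not overlap any of the others within the shared run. No mm9 genome or annotation was used, so no peak was placed on a promoter, exon or intron and no motif was sought inside a peak.

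The Runx3 locus was the most densely occupied of the 4, with 28 peaks in 200 kb. The window held 0.14 peaks per kb (exact 95% Poisson interval 0.093 to 0.202), or 1 peak per 7.14 kb. Runx1, with 20 peaks in 340 kb, held 0.0588 per kb (0.0359 to 0.0908). Cbfb held 3 peaks in 140 kb, 0.0214 per kb (0.00442 to 0.0626), and Runx2 held 5 in 300 kb, 0.0167 per kb (0.00541 to 0.0389). The order was therefore Runx3, Runx1, Cbfb, Runx2. The interval of Runx3 did not overlap that of any other locus, whereas those of Runx1, Cbfb and Runx2 all overlapped each other. The density at Runx3 was 2.38 times that at Runx1, 6.53 times that at Cbfb and 8.4 times that at Runx2. These intervals cover counting error only and treat peaks as independent. Peaks of the list were clustered: on chromosome 4, 57.8% of equal windows were empty at a mean of 1.61 peaks. The intervals are therefore too narrow, and nothing is concluded from whether they overlap. Since the windows were chosen with peak positions known and there is no replicate, no test was made.

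**Figure D1:**
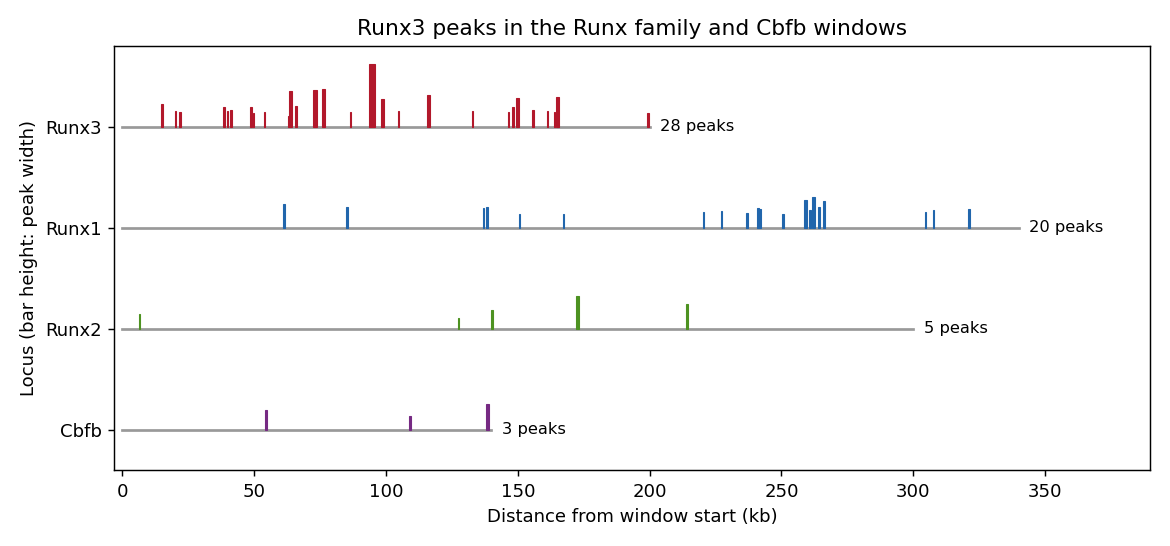
Runx3 peaks along the 4 windows, by distance from the window start in kb; each bar is 1 peak, as wide as the peak and with its height proportional to peak width. The 28 peaks at Runx3 are spread over most of the window. At Runx1, 11 of the 20 lie between 220 and 266 kb, and the 5 at Runx2 and 3 at Cbfb stand apart from each other.

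Equal windows laid end to end over the same chromosome gave the background. On chromosome 4 the Runx3 window was the fullest of 760 windows of 200 kb: 0.132% of them, itself included, held 28 peaks or more, the next held 17, the median was 0 and 57.8% were empty. On chromosome 16 the Runx1 window was likewise the fullest of 277 windows of 340 kb (0.361%), followed by one with 17 peaks. When windows started every 10 kb, 0 of 15152 that lay clear of the Runx3 window reached 28 peaks, the fullest holding 18. For Runx1, 27 of 9351 such windows reached 20 peaks and the fullest held 24, and on the first grid 1.08% of windows reached its count once gaps of up to 1000 bp were merged. The first place of Runx1 on chromosome 16 thus depended on the grid and on the peaks as listed.

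The loci of Runx2 and Cbfb lay within the ordinary range of their chromosomes. On chromosome 17, 26.8% of 306 windows of 300 kb held 5 peaks or more, up to 28. On chromosome 8, 15.0% of 913 windows of 140 kb held 3 or more, up to 16. Both windows still exceeded the mean of 3.28 and 1.12 peaks per equal window. Relative to the mean density of its chromosome, the Runx3 window was 17.3 times as dense and Runx1 9.01 times, whereas Cbfb was 2.66 times and Runx2 1.52 times as dense.

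**Figure D2:**
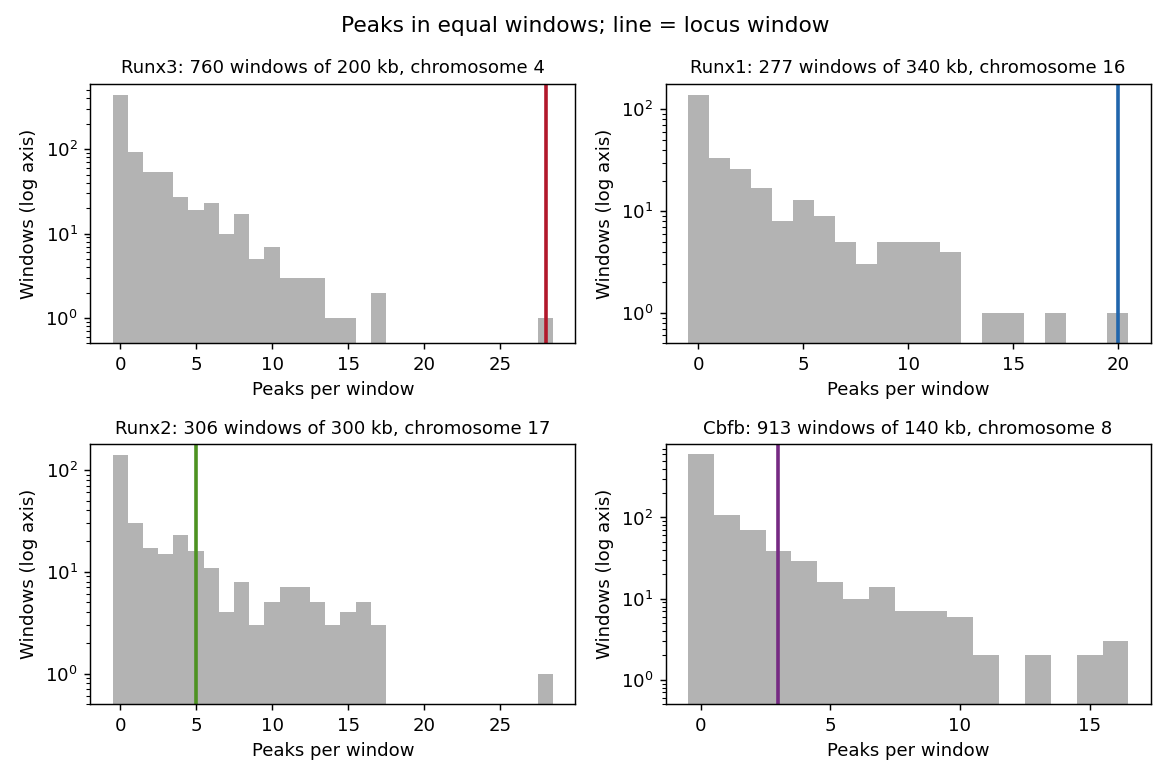
Number of equal windows (log axis) by peaks per window for the chromosome of each locus; the vertical line marks the locus window, which is itself counted in the grey bars. The lines of Runx3 (28) and Runx1 (20) stand at the right end of their distributions, those of Runx2 (5) and Cbfb (3) within them.

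The same order held for the share of DNA covered by peaks, which is built from the same peaks and is no separate observation. Peaks covered 21.5 kb (10.7%) of the Runx3 window, 13.5 kb (3.96%) of the Runx1 window, 3.53 kb (1.18%) of the Runx2 window and 2.05 kb (1.47%) of the Cbfb window. At least as much was covered in 0.132% of the equal windows for Runx3, 0.361% for Runx1, 24.2% for Runx2 and 12.7% for Cbfb. Windows of unequal length can dilute a dense core, so the fullest 50 kb of each was also counted. It held 12 peaks at Runx3, 11 at Runx1, 3 at Runx2 and 2 at Cbfb. On this measure Runx1 came within 1 peak of Runx3, while 30.4% of equal windows reached the value of Runx2 and 19.3% that of Cbfb.

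At Runx3, peaks lay along most of the window. Cut into 3 equal parts from left to right, the window held 12, 8 and 8 peaks. Neighbouring midpoints lay a median of 5.01 kb apart, against 24.4 kb over the list, and 21 of the 27 adjacent pairs (77.8%) lay within 10 kb, against 31.6% of pairs in the list. When such neighbours were chained, 25 of the 28 peaks fell into 4 chains of 3 or more, and 2 stood alone. In the whole list, 9750 of the 19647 peaks stood alone and 2388 chains were pairs. Chaining is not independent of density, and whether the peaks were more grouped than the density of the locus gives was not tested.

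The chains at Runx3 differed in size and width. The first held 3 peaks in 7.36 kb, at chr4:134574736-134582091. The largest held 11 peaks in 38.8 kb, at chr4:134598232-134637033, and 3 of its peaks were wider than 1000 bp. A chain of 4 peaks in 18.7 kb followed at chr4:134646360-134665074, which contained the widest peak of the locus. The fourth, at chr4:134706281-134725662, held 7 peaks in 19.4 kb. In the whole list, 35.5% of the 3700 chains of 2 or more peaks held at least 3, 15.0% at least 4, 2.54% at least 7 and 0.297% (11 chains) at least 11. Between the last 2 of these chains stood 2 single peaks, at chr4:134675738-134676825 (1088 bp) and chr4:134692460-134693021 (562 bp). The longest stretch inside the window without a peak ran from 134725662 to 134759189, with midpoints 34.3 kb apart.

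The size of the largest chain at Runx3 depended on how neighbours were joined. It was 3 peaks with a distance of 5 kb, 27 with 20 kb, and 7 after peaks separated by gaps of up to 1000 bp were merged. At 20 kb nearly the whole locus, 27 of its 28 peaks, thus formed 1 chain.

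At Runx1, by contrast, peaks were gathered on the right of the window. Its 3 equal parts held 2, 5 and 13 peaks. A chain of 11 peaks in 46.5 kb, at chr16:92780136-92826640, took 13.7% of the window and held more than 1 in 2 of its peaks. It equalled the largest chain at Runx3 in number but had a lower density, 0.237 against 0.283 peaks per kb of its span. It included the widest peak of the locus and both peaks of its closest pair, which were separated by 96 bp. With a distance of 5 kb, or after merging gaps of up to 1000 bp, the largest chain at Runx1 held 5 peaks. At 20 kb it remained at 11 peaks, since the nearest peaks on both sides lay farther off.

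Outside that chain, the Runx1 locus held 9 peaks: 2 pairs, at chr16:92696676-92698718 and chr16:92864396-92867999, and 5 single peaks. The longest stretch without a peak, with midpoints 53.2 kb apart, ran from 92727466 to 92780136 and separated the chain from the 6 peaks on its left; the other 3 lay on its right. Over the locus, 12 of 19 adjacent pairs (63.2%) lay within 10 kb, with a median distance of 8.56 kb.

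The Runx2 locus had 5 peaks, all single, with a median distance of 37.0 kb against 24.4 kb over the list. Single peaks are common in the list, where 9750 of 19647 stood alone. From left to right they measured 507 bp at chr17:44706215-44706721, 384 bp at chr17:44827415-44827798, 643 bp at chr17:44839794-44840436, 1147 bp at chr17:44872009-44873155 and 848 bp at chr17:44913751-44914598. The second to the fifth lay between 128 and 214 kb from the window start, and 121.0 kb separated the midpoint of the first from that of the second. The peak of 1147 bp was among the widest 5.84% of the list.

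The Cbfb locus had 3 peaks. They measured 699 bp at chr8:107694093-107694791, 469 bp at chr8:107748880-107749348 and 885 bp at chr8:107778113-107778997. The first pair of neighbours had midpoints 54.7 kb apart. The last of them lay 1.45 kb inside the right edge and was the first of a chain of 7 peaks in 16.6 kb, at chr8:107778113-107794734, whose other 6 peaks lay outside. The count of 3 therefore rests on where the window ends: the next 140 kb to the right held 11 peaks, and the 140 kb to the left held 0. In the order of protein-coding genes in GRCm38, Cbfb is followed by D230025D16Rik and B3gnt9 and preceded by Ces4a; which of them this chain lies in or near was not analysed here.

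**Figure D3:**
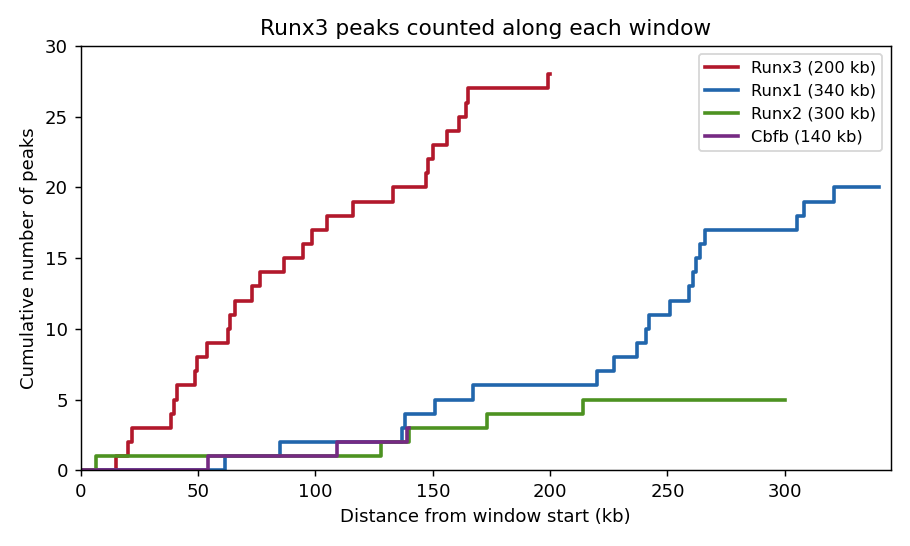
Cumulative number of Runx3 peaks by distance from the window start in kb, 1 line per locus, ending at the window's length. The Runx3 line climbs along nearly its whole length to 28, and the Runx1 line gains 11 of its 20 peaks between 220 and 266 kb.

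The right edge of the Runx3 window also split a chain, a pair of peaks. At Runx3 the first member lay 15.1 kb inside the left edge (805 bp wide) and the nearest non-member 35.7 kb outside it (566 bp). At its right edge the last member lay 0.567 kb inside (490 bp) and the next peak 2.23 kb outside (989 bp), the pair forming a chain of 2. The 200 kb before and after the Runx3 window held 8 and 6 peaks, so the density dropped on both sides. Both counts still exceeded the chromosome 4 mean of 1.61 peaks per equal window, so the locus lay within a peak-rich stretch. At Runx1 the nearest peaks to the edges were 61.3 kb and 18.9 kb inside (839 and 647 bp) and 93.6 kb and 27.3 kb outside (898 and 710 bp), and the adjoining 340 kb held 2 and 6 peaks. At Runx2 they were 6.47 kb and 85.8 kb inside (507 and 848 bp) and 99.2 kb and 354 kb outside (483 and 528 bp), with 2 and 0 peaks in the adjoining 300 kb. At Cbfb the first member lay 54.4 kb inside the left edge and the nearest non-member 474 kb outside it (725 bp), and at the right edge the next peak lay 3.75 kb outside (791 bp). The Runx3 window made up 20% of the megabase from 134 to 135 Mb of chromosome 4 and held 40.6% of its 69 peaks.

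In width, the peaks at Runx3 were divided between many of ordinary size and a few broad ones. Their median was 579 bp, below the list's median of 604 bp, and 13 of 28 were wider than that median. Yet 6 of the 28 (21.4%) were wider than 1000 bp, against 10.4% of the list. The widest, 2174 bp at chr4:134653649-134655822, ranked 27th among the 19647 peaks. The other 5 measured 1037 to 1308 bp. The narrowest, 386 bp at chr4:134622681-134623066, was separated by 66 bp from a peak of 1238 bp, the closest pair at the locus.

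At Runx1 fewer peaks were broad. Its median width was 656 bp, 13 of 20 peaks were wider than the list's median, and 1 (5.0%) exceeded 1000 bp. The widest measured 1067 bp at chr16:92821715-92822781 and the narrowest 464 bp at chr16:92810333-92810796. The order of the 2 medians turned when peaks separated by gaps of up to 1000 bp were merged, to 762.5 bp at Runx3 and 619 bp at Runx1, and as listed their 95% intervals, taken from the ranked widths, overlapped (532 to 805 bp and 565 to 709 bp). The medians were 643 bp at Runx2 (5 peaks, 384 to 1147 bp) and 699 bp at Cbfb (3 peaks, 469 to 885 bp). All 4 medians lay within the middle 50% of the list, 506 to 778 bp. Among equal windows with at least 3 peaks, a median width as high or higher was found in 68.6% for Runx3, 35.9% for Runx1, 33.3% for Runx2 and 23.4% for Cbfb, so none of the loci stood apart by its median width. A peak width is the caller's extent and is no measure of binding strength.

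**Figure D4:**
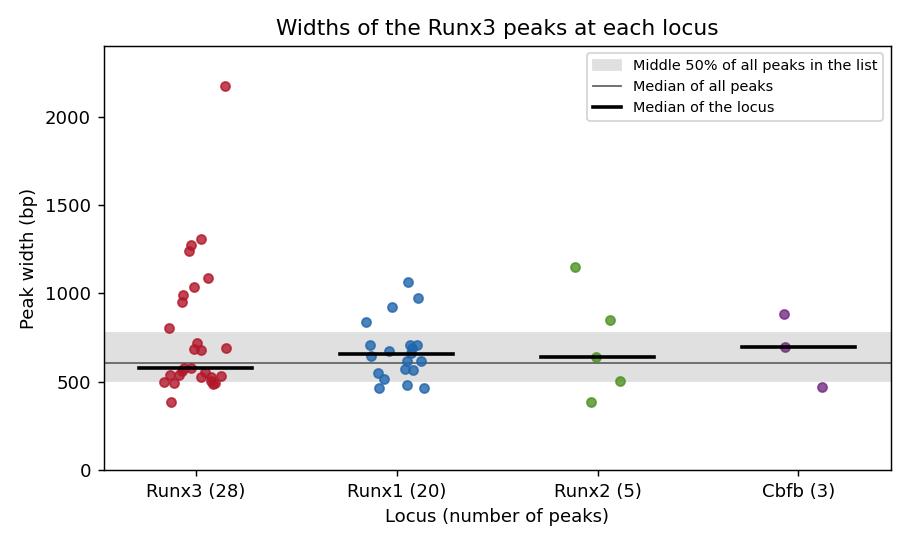
Width in bp of every Runx3 peak at the 4 loci (points, spread sideways at random), with the median of each locus (black bar), and the median (grey line) and middle 50% (grey band) of all peaks in the list. The medians lie between 579 and 699 bp. Peaks above 1000 bp are 6 of 28 at Runx3, where 1 reaches 2174 bp, 1 of 20 at Runx1, 1 of 5 at Runx2 and 0 of 3 at Cbfb. In the list, 10.4% of peaks exceed 1000 bp.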

How the data were processed

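Per the labels' protocols, chromatin from sorted NK cells was crosslinked with 1% formaldehyde and sonicated to fragments near 200 bp, and ELAND aligned the 50 bp reads. The submitters' processing notes name CASAVA 1.8.2 and mm9. Not given in the sources used here are the peak caller, its threshold and its use of the control. As deposited by the authors, the file is a list of peak positions, with no score or read count per peak, so the depth is unknown. The file name contains "to small", which no source used here explains, so the list may be a reduced set. Starts are counted from 1.

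A peak belonged to a locus if its midpoint lay in the window. Neighbours with midpoints at most 10 kb apart were chained. Equal windows were laid in phase with the locus window, within the span of the chromosome's peaks. Computations used Python 3.11.15, numpy 2.4.6 and scipy 1.17.1, and window counting was tested on simulated data. Members and measures were chosen with earlier results of these data known. Named peaks are the widest and narrowest of each locus, chains of 3 or more, peaks nearest the edges, and every peak of loci with 6 or fewer; the single peaks and pairs at Runx3 and Runx1 were added with their values in view. The planned comparison of Runx proteins and that of other pathway genes were not analysed here.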

Additional observations from a re-analysis of the deposited data

How the results depend on the processing

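Of 64 values recomputed under settings listed in advance, 51 stayed within 1.5 times the reported count or within its interval, and 13 moved. The intervals of the window shares, exact 95% binomial ones, were wide, 0.00333% to 0.731% for Runx3 and 0.00914% to 1.99% for Runx1. The windows were all counted, not drawn, and adjoin each other. These intervals therefore measure no sampling spread and served only as a cut-off for calling a share moved. A Runx3 share of 0.0197% against 0.132%, and a Runx1 share of 1.08% against 0.361%, thus counted as unmoved. Dropping peaks narrower than the list's median left 13 peaks at Runx3, 13 at Runx1 and 3 at Runx2, fewer by construction. On a grid over all autosomes, 0% of windows reached the count of Runx3 (that grid does not hold the locus window itself) and 19.9% that of Runx2. The shares for Runx1 and Cbfb there, 0.896% and 16.3%, counted as unmoved. For Runx1 that was 63 of 7032 windows, the fullest holding 40 peaks. Among windows with at least 1 peak, 49.1% reached the count of Runx2 and 43.5% that of Cbfb, because empty windows were left out. The largest chain was 3, 27 and 7 peaks at Runx3 with a 5 kb distance, a 20 kb distance and merged gaps of up to 1000 bp. At Runx1 it was 5 peaks with 5 kb and 5 with merged gaps, and at Runx2 it was 2 peaks with 20 kb. No paired analysis was possible because neither antibody has a second library. Read depth is not listed, so what weaker sites would add is unknown.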
